A study of Mus musculus with 8 samples.

Results

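The 10 genes of the BCL2 family described here were followed through the step from naive CD4 T cells to effector Th1, Th2 and Th17 cells. They were the 4 pro-survival genes Bcl2, Bcl2l1, Mcl1 and Bcl2a1b and the 6 pro-death genes Bax, Bak1, Bcl2l11, Bid, Bbc3 and Pmaip1, taken by symbol out of 23284 genes in the expression tables. Each of the 10 genes was listed in every library. All 10 passed the filter on low values, a mean of at least 1 FPKM over the 8 libraries, which left 11198 genes for testing.

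The mice were DO11.10 Tg, 6 to 12 weeks old. Their transgenic T cell receptor recognizes an ovalbumin (OVA) peptide and was shared by all 4 groups. Naive cells were CD44low CD62Lhi CD4 T cells sorted from spleen and not cultured. The 3 effector groups were grown from such cells for 6 days with irradiated splenocytes, depleted of T cells, and the OVA peptide. For Th1 cells the medium held 30 U/ml IL-2, 100 U/ml of the inducing cytokine IL-12 and 1 µg/ml of an antibody to IL-4. For Th2 cells it held 30 U/ml IL-2, 100 U/ml of the inducing cytokine IL-4 and 10 µg/ml of an antibody to IFNγ. For Th17 cells it held 10 ng/ml of each of the cytokines IL-6, IL-1β and IL-23 and both antibodies at 10 µg/ml, with no IL-2 listed. Culture, stimulation and helper subset therefore differ together between naive and effector cells and cannot be told apart, and Th17 cells differ from the others also in added IL-2. Each group had 2 libraries. The labels do not say whether the 2 libraries of a group came from separate mice or cultures, so the p-values measure only the spread between these libraries, which may be technical.

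BCL2 family proteins decide whether the outer membrane of the mitochondrion stays closed. BAX and BAK1 are the effectors that open it, the pro-survival proteins (BCL2, BCL-XL, MCL1, A1) hold them in check, and the BH3-only proteins (BIM, BID, PUMA, NOXA) bind the pro-survival proteins or activate the effectors directly. In T cells the balance between BIM and BCL2 is known for its part in the loss of activated cells at the end of a response. Transcript levels do not give protein levels, and several of these proteins, MCL1 above all, turn over quickly.

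The libraries carried the markers of their labels. The summed FPKM of 6 T cell genes lay between 1610 and 2564. The Th1 marker sum was 898 to 1040 in Th1 and at most 132 elsewhere, the Th2 sum was 373 to 406 in Th2 and at most 26.2 elsewhere, and the Th17 sum was 1367 to 1394 in Th17 and at most 2.50 elsewhere. Markers of other cells, except Cd8b1, were low but not equal. Cd8b1 was at 90.5 and 52.8 FPKM in naive cells and at most 12.9 FPKM in effector cells. The other genes of the CD8 and NK cell list were far lower. Cd8a was at 2.94 and 1.77 FPKM in naive cells and at most 0.268 FPKM in effector cells. Ncr1 and Klrb1c were at most 0.209 and 0.625 FPKM in any library. The widths of the confidence intervals in the tables imply 14463466 to 21058286 fragments per library, with the 2 naive libraries the shallowest. In these bulk libraries, fewer cells of a type and less RNA per cell cannot be told apart.

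**Figure D1:**
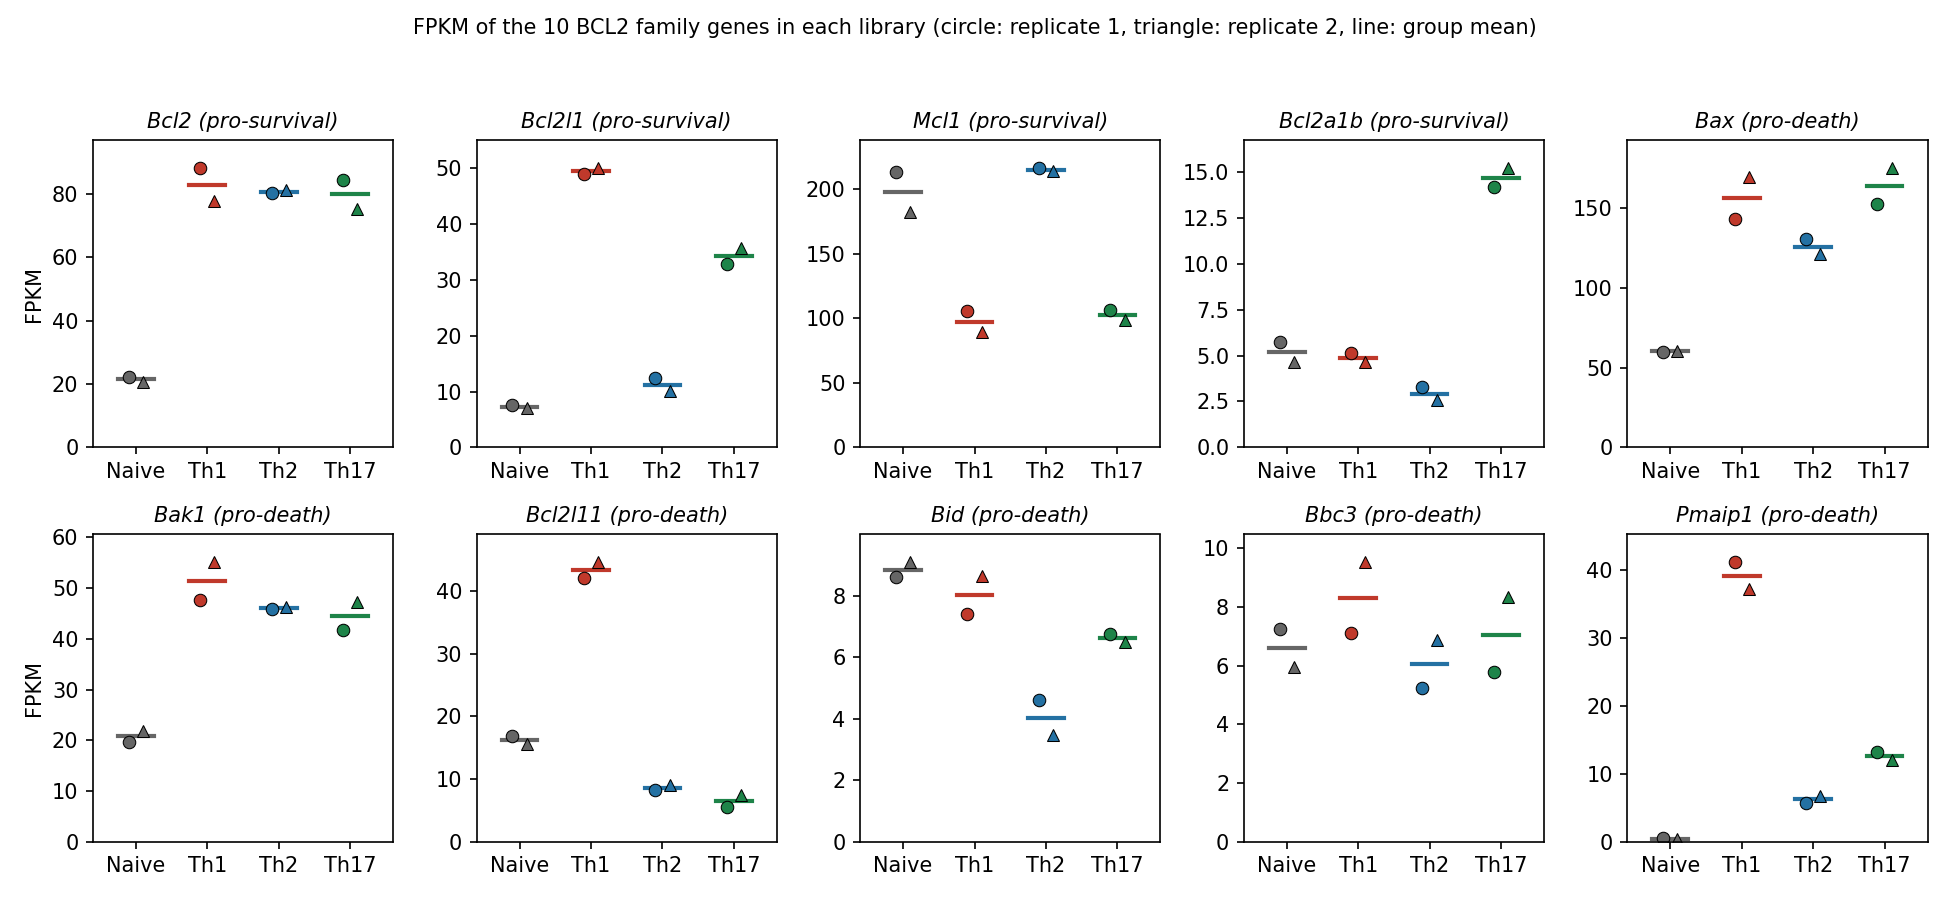
FPKM (vertical axes, each starting at 0) of the 10 genes in naive, Th1, Th2 and Th17 cells. Circles are replicate 1, triangles replicate 2 and lines group means. Bcl2, Bax and Bak1 are lower in both naive libraries than in any effector library, Bcl2l11 is highest in Th1 cells (42.1 and 44.6 FPKM), and Bcl2a1b is highest in Th17 cells (14.2 and 15.2 FPKM).

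Pro-survival transcripts were compared first. Bcl2, the founding member of the family (chr1:106538179-106714290, mm10), stood at 22.1 and 20.8 FPKM in naive cells, against 88.2 and 77.7 in Th1 cells, 80.2 and 81.1 in Th2 cells and 84.5 and 75.2 in Th17 cells. The 6 effector libraries overlapped one another and lay well above both naive libraries. On the log2(FPKM + 1) scale the difference from naive cells was 1.90 ± 0.11 (SE, n = 2 libraries a group) in Th1 cells, 1.86 ± 0.11 in Th2 cells and 1.85 ± 0.11 in Th17 cells. The adjusted p was 7.11e-06, 6.47e-06 and 7.10e-06 (limma over all genes, Benjamini-Hochberg). Between effector subsets the differences did not pass the test. The 95% interval was −0.21 to 0.29 for Th1 minus Th2, −0.27 to 0.23 for Th17 minus Th2 and −0.20 to 0.31 for Th1 minus Th17. One naive value of Bcl2 has an unusually wide confidence interval in the tables, equal to 114 fragments against 2577 in the other naive library at nearly the same FPKM. A fit that weighs each value by its implied fragments (voom) takes that low number as the count, and the differences from naive cells were then 4.30 for Th1, 4.36 for Th2 and 4.19 for Th17 (adjusted p at most 0.0153, limma). Of the 50-base words of Bcl2 transcripts, 5.25% also occur in transcripts of other genes.

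Bcl2l1, which encodes BCL-XL and the shorter pro-death form BCL-XS, separated the subsets (chr2:152780668-152831682). It was at 7.61 and 7.03 FPKM in naive cells, against 49.1 and 50.1 in Th1 cells, 12.4 and 10.2 in Th2 cells and 32.9 and 35.7 in Th17 cells. No 2 groups overlapped, and the order was Th1, Th17, Th2, naive. The gene rose by 2.60 ± 0.11 in Th1 cells (adjusted p = 2.05e-06, limma), by 0.55 ± 0.11 in Th2 cells (adjusted p = 0.00347, limma) and by 2.08 ± 0.11 in Th17 cells (adjusted p = 5.09e-06, limma). Th1 cells exceeded Th2 cells by 2.05 (95% interval 1.78 to 2.31) and Th17 cells exceeded Th2 cells by 1.53 (1.26 to 1.79). In mean FPKM these were ratios of 4.40 and 3.04. The excess of Th1 over Th17 cells was 0.52 (adjusted p = 0.0156, limma), and it no longer passed the test when any one of the 4 Th1 and Th17 libraries was left out. These gene-level values do not separate the long form from the short one.

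Mcl1, which encodes a short-lived pro-survival protein that T cells need at every stage, went the other way (chr3:95658721-95663178). It was at 213 and 182 FPKM in naive cells, against 105 and 89.3 in Th1 cells, 216 and 214 in Th2 cells and 107 and 98.7 in Th17 cells. Naive and Th2 libraries formed the upper level and Th1 and Th17 libraries the lower one. Relative to naive cells the gene fell by 1.01 ± 0.13 in Th1 (adjusted p = 0.000367, limma) and by 0.94 ± 0.13 in Th17 (adjusted p = 0.000524, limma). In Th2 cells the difference was 0.13 (95% interval −0.17 to 0.43, adjusted p = 0.404, limma). Th2 cells exceeded Th1 cells 2.21-fold and Th17 cells 2.09-fold in mean FPKM. Th1 and Th17 cells did not differ beyond their spread (−0.08, interval −0.38 to 0.22). The summed FPKM of 5 myeloid marker genes was also highest in Th2 cells (31.7 to 35.3, against 18.6 to 20.1 in naive, 10.7 to 12.02 in Th1 and 20.1 to 22.0 in Th17 cells). The means of Lyz2, Cd68 and Emr1 followed the sum. Csf1r was instead highest in naive cells (3.84 and 3.20 FPKM, against 0.989 and 0.841 in Th2 cells). Itgam was highest in Th17 cells (1.89 and 2.03, against 1.81 and 1.77 in Th2 cells). The part of myeloid cells in the Mcl1 values was not tested.

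Bcl2a1b encodes A1, a pro-survival protein induced by NF-κB, and is one of several near-identical copies on mouse chromosome 9 (chr9:89199273-89207838). It was at 5.73 and 4.63 FPKM in naive cells, against 5.12 and 4.63 in Th1 cells, 3.31 and 2.56 in Th2 cells and 14.2 and 15.2 in Th17 cells. Naive and Th1 libraries overlapped, Th2 libraries lay below them and Th17 libraries above. The gene rose by 1.35 ± 0.14 in Th17 cells (adjusted p = 0.000114, limma) and fell by 0.65 ± 0.14 in Th2 cells (adjusted p = 0.00404, limma). In Th1 cells the difference was −0.07 (95% interval −0.39 to 0.25). Th17 cells exceeded Th2 cells by 2.00 (adjusted p = 9.22e-05, limma) and Th1 cells by 1.42. Th1 cells exceeded Th2 cells by 0.58 (adjusted p = 0.0126, limma), which no longer passed when Th1 replicate 1 or Th2 replicate 2 was left out, or with voom on the implied fragments. B cell and dendritic cell marker sums were also highest in Th17 cells (11.1 to 12.1 and 3.88 to 3.90 FPKM, against at most 9.72 and 2.82 elsewhere), while the myeloid sum was highest in Th2 cells. Single markers did not all follow these sums. Itgax was highest in Th2 cells (2.27 and 2.25 FPKM, against 1.65 and 1.59 in Th17 cells), as was Ms4a1. Xcr1 was highest in Th1 and Siglech in naive cells. Cd79a overlapped between naive (3.73 and 3.40) and Th17 cells (4.20 and 3.32). The part of such cells in the A1 values was not tested.

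The copies could not be counted apart. Of the 50-base words of Bcl2a1b transcripts, 79.2% also occur in other genes. Of all its words, 57.5% occur in Bcl2a1d and 41.1% in Bcl2a1a, so reads of 50 bases are split among the copies by the counting. Bcl2a1a was at 7.02 and 9.06 FPKM in Th17 cells and at most 2.46 elsewhere. Bcl2a1d was at 10.7 and 11.9 FPKM in Th17 cells and at most 3.50 elsewhere. Summed over Bcl2a1a, Bcl2a1b, Bcl2a1c and Bcl2a1d, the level was 11.8 and 9.20 FPKM in naive cells, against 10.9 and 10.4 in Th1 cells, 7.32 and 4.73 in Th2 cells and 32.8 and 37.2 in Th17 cells. Th17 libraries were again the highest and Th2 libraries the lowest, with naive and Th1 libraries overlapping. The 250 bases before the start of the 3 tested copies are shown because they too are nearly alike. They are RefSeq sequences of GRCm38.p6, each 5′ to 3′ on its gene's strand, and capitals mark positions at which the copies differ or one lacks a base, within the 206 alignment columns that all 3 sequences span. Bases outside that span are in lower case whether or not they differ.
Bcl2a1a, chr9:88956670-88956919, plus strand: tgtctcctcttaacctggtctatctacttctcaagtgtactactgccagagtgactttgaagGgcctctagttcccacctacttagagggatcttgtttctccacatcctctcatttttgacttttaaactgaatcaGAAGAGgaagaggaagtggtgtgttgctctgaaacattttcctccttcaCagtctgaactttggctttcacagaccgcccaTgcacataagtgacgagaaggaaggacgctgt
Bcl2a1b, chr9:89199023-89199272, plus strand: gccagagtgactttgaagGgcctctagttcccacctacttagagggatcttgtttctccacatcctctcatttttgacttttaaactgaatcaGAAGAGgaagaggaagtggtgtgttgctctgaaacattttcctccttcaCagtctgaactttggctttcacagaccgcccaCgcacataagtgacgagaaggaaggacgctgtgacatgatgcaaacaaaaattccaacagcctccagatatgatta
Bcl2a1d, chr9:88731851-88732100, minus strand: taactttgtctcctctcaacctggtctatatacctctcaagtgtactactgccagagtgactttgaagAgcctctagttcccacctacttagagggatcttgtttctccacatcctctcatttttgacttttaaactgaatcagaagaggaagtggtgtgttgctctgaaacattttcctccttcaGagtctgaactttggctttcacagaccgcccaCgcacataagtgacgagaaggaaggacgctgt
Bcl2a1d lacks a base at 6 of these columns. Where both copies of a pair have a base, Bcl2a1a and Bcl2a1b were identical at 99.5% of 206 columns, Bcl2a1b and Bcl2a1d at 99.0% of 200 columns, and Bcl2a1a and Bcl2a1d at 98.5% of 200 columns.

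Both effector genes of the pro-death side were lower in naive cells than in Th1, Th2 or Th17 cells. Bax (chr7:45461695-45466898) was at 60.0 and 60.6 FPKM in naive cells, against 143 and 169 in Th1 cells, 130 and 121 in Th2 cells and 152 and 175 in Th17 cells. Bak1 (chr17:27019812-27028626) was at 19.7 and 21.9 FPKM in naive cells, against 47.8 and 55.1 in Th1 cells, 45.8 and 46.3 in Th2 cells and 41.8 and 47.2 in Th17 cells. For both genes every effector library lay above both naive libraries. Bax rose by 1.35 ± 0.12 in Th1 cells, 1.05 ± 0.12 in Th2 cells and 1.42 ± 0.12 in Th17 cells (adjusted p at most 0.000235, limma). Bak1 rose by 1.26 ± 0.11, 1.11 ± 0.11 and 1.06 ± 0.11 (adjusted p at most 0.000157, limma).

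Between subsets Bak1 did not differ beyond its spread (95% intervals −0.12 to 0.42 for Th1 minus Th2, −0.32 to 0.22 for Th17 minus Th2 and −0.07 to 0.47 for Th1 minus Th17). Bax was higher in Th17 than in Th2 cells by 0.38 (adjusted p = 0.0449, limma), where the median of all genes was itself higher by 0.18. With libraries scaled to equal medians the Bax difference was 0.19 (adjusted p = 0.190, limma) and did not pass. Th1 minus Th2 was 0.31 (adjusted p = 0.0838, limma) and Th1 minus Th17 was −0.07 (95% interval −0.36 to 0.22). The ratio of Bax to Bak1 FPKM stayed between 2.62 and 3.71 in the 8 libraries. Part of both transcripts cannot be told from neighbours. Of the 50-base words, 17.1% of those of Bak1 also occur in Ggnbp1 on the other strand and 8.51% of those of Bax in the overlapping gene Gm45808.

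The BH3-only gene Bcl2l11, which encodes BIM, changed in opposite directions in different subsets (chr2:128126038-128162547). It was at 16.8 and 15.7 FPKM in naive cells, against 42.1 and 44.6 in Th1 cells, 8.30 and 9.0002 in Th2 cells and 5.64 and 7.55 in Th17 cells. No 2 groups overlapped. Th1 libraries were the highest, naive libraries next, and Th2 and Th17 libraries the lowest. Relative to naive cells the gene rose by 1.36 ± 0.13 in Th1 cells (adjusted p = 0.000107, limma), fell by 0.84 ± 0.13 in Th2 cells (adjusted p = 0.00105, limma) and fell by 1.19 ± 0.13 in Th17 cells (adjusted p = 0.000188, limma). Th1 cells exceeded Th2 cells by 2.20 and Th17 cells by 2.56 (adjusted p = 3.57e-05 and 3.59e-05, limma), ratios of 5.01 and 6.57 in mean FPKM. Th17 minus Th2 was −0.36 (adjusted p = 0.0670, limma). That difference passed when libraries were scaled to equal medians (−0.52, adjusted p = 0.0156, limma) or when the replicate number was a block (adjusted p = 0.0417, limma).

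The promoter of Bcl2l11 is shown because the difference between subsets was the largest of the 10 genes, and FOXO factors are known activators of the gene. The letters TGTTTAC, the core that FOXO factors bind, were searched on both strands and occur once in the 250 bases before the start, on the minus strand at −227 to −221, in capitals here. The sequence is from RefSeq, GRCm38.p6, 5′ to 3′ on the plus strand.
Bcl2l11, chr2:128125788-128126037: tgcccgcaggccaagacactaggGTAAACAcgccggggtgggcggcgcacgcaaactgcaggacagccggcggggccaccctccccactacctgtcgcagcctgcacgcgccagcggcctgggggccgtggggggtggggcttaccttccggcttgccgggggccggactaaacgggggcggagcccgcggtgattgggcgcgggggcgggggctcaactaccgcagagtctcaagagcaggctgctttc
The 9 members searched have 14 promoters among them, and these letters were found in promoters of 2 members, Bcl2l11 and Bbc3. They occur in 3.17% of 32851 promoters of the same length, which is a share per promoter and not per gene. The STAT letters TTCNNNGAA, also on both strands, were found in none of the 9 and in 7.02% of all promoters. A match describes the letters and not a bound site. Foxo1, named here after its values were seen, was at 68.6 and 70.8 FPKM in naive cells, against 20.8 and 22.3 in Th1 cells, 41.4 and 43.3 in Th2 cells and 15.7 and 18.1 in Th17 cells. Foxo1 fell by 1.65 in Th1, where Bcl2l11 rose, and by 0.70 and 1.98 in Th2 and Th17 cells, where Bcl2l11 fell (adjusted p at most 0.000608, limma). The part of FOXO factors in the Bcl2l11 values was not tested. Foxo3 passed in no comparison, although with the replicate number as a block it was higher in Th2 cells than in each other group (adjusted p at most 0.00685, limma).

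Bid and Bbc3 were low throughout. Bid (chr6:120893119-120916820), whose protein links death receptors to mitochondria, was at 8.62 and 9.08 FPKM in naive cells, against 7.40 and 8.64 in Th1 cells, 4.60 and 3.48 in Th2 cells and 6.76 and 6.48 in Th17 cells. Naive and Th1 libraries overlapped and Th2 libraries were the lowest. Bid fell by 0.97 ± 0.13 in Th2 cells (adjusted p = 0.000456, limma), and was higher in Th1 than in Th2 cells by 0.84 (adjusted p = 0.00235, limma). In Th17 cells it fell by 0.37 relative to naive (adjusted p = 0.0395, limma) and was 0.61 higher than in Th2 (adjusted p = 0.0101, limma). The former no longer passed when any one naive or Th17 library was left out, and the latter when Th2 replicate 2, Th17 replicate 1 or Th17 replicate 2 was. Of the words of Bid transcripts, 16.4% also occur in Bcl2l13, which lies on the other strand. Bbc3 (chr7:16309583-16318334), which encodes the p53 target PUMA, ranged from 5.25 to 9.51 FPKM over the 8 libraries. Both Th1 libraries (7.10 and 9.51) lay above both Th2 libraries (5.25 and 6.88), and all other pairs of groups overlapped. None of its 6 differences passed the test. The interval that reached farthest from 0 was that of Th1 minus Th2, −0.10 to 0.90.

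Pmaip1, which encodes NOXA, the BH3-only protein that binds MCL1 and A1, showed the largest change from naive cells among the 10 genes. It was at 0.53 and 0.38 FPKM in naive cells, against 41.2 and 37.3 in Th1 cells, 5.73 and 6.82 in Th2 cells and 13.2 and 12.1 in Th17 cells. No 2 groups overlapped and the order was Th1, Th17, Th2, naive. The naive values rest on the equivalent of 30 and 21 fragments. The gene rose by 4.79 ± 0.12 in Th1 cells, 2.32 ± 0.12 in Th2 cells and 3.23 ± 0.12 in Th17 cells (adjusted p = 2.78e-07, 3.60e-06 and 9.05e-07, limma). Because 1 is added before the logarithm, these understate the ratios of mean FPKM, which were 86.2, 13.8 and 27.8. Th1 cells exceeded Th2 cells by 2.47 and Th17 cells by 1.56, and Th17 cells exceeded Th2 cells by 0.91 (adjusted p at most 0.00133, limma).

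**Figure D2:**
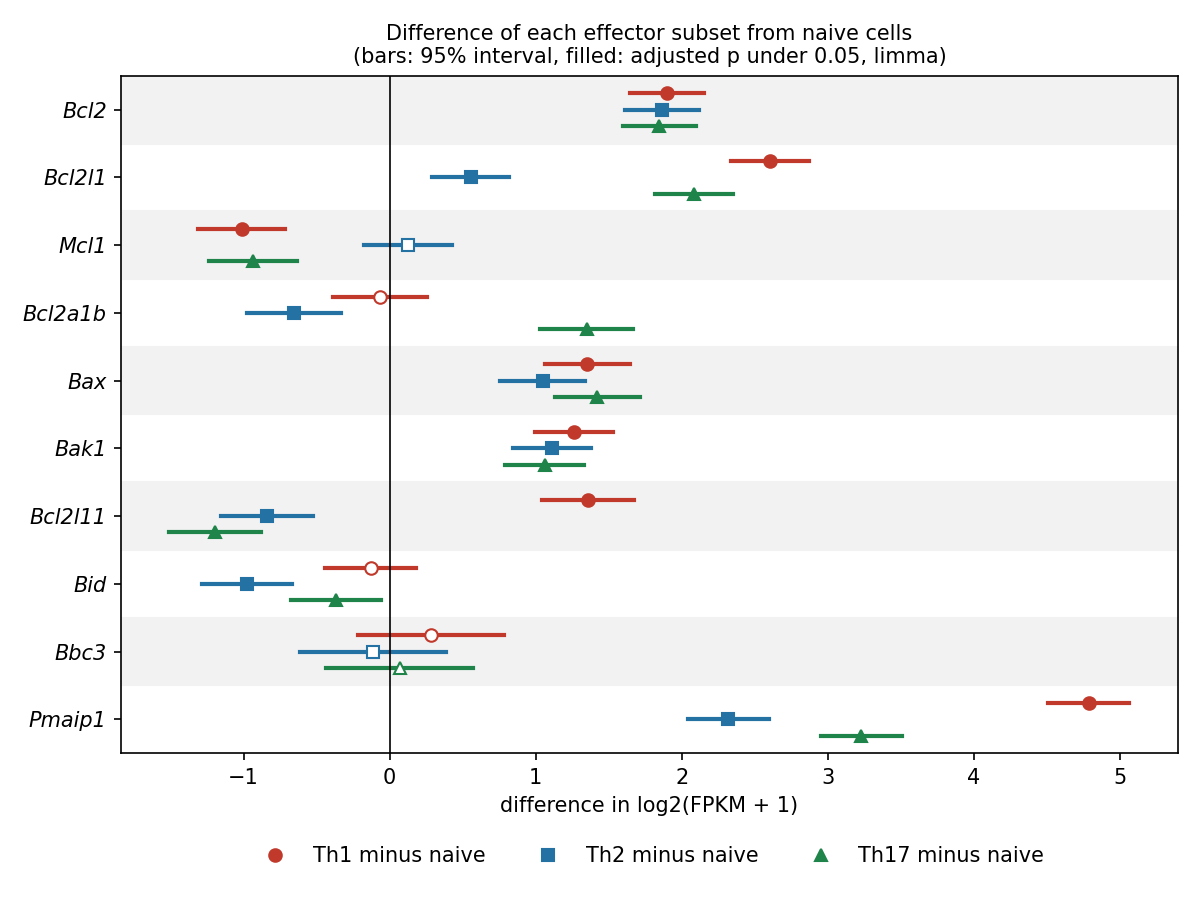
Difference of Th1, Th2 and Th17 cells from naive cells in log2(FPKM + 1) for each of the 10 genes. Symbols are the fitted differences from 2 libraries a group, bars the 95% intervals, and filled symbols have an adjusted p under 0.05. Bcl2 sits at 1.85 to 1.90 in all 3 subsets, while Bcl2l11 is at 1.36 in Th1 and below 0 in Th2 and Th17 cells.

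Counted together, 6 of the 10 genes rose, 1 fell and 3 did not pass in Th1 cells, where 33.8% of all tested genes rose and 33.5% fell. In Th2 cells 5 rose, 3 fell and 2 did not pass, where 31.8% of all genes rose and 38.7% fell. In Th17 cells 6 rose, 3 fell and 1 did not pass, where 37.5% of all genes rose and 29.8% fell. The median difference of the 10 was 1.31, 0.34 and 1.21, beside −0.01, −0.11 and 0.08 for all tested genes. These 3 comparisons share the naive libraries. Of the 4 pro-survival genes, 2 rose in Th1 cells, 2 in Th2 cells and 3 in Th17 cells. Of the 6 pro-death genes, 4 rose in Th1 cells, 3 in Th2 cells and 3 in Th17 cells, and the 2 that fell in both Th2 and Th17 cells were Bcl2l11 and Bid.

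Between effector subsets 5 of the 10 genes were higher and 1 lower in Th1 than in Th2 cells (27.4% and 16.9% of all genes), 5 were higher and 1 lower in Th17 than in Th2 cells (31.7% and 12% of all genes), and 3 were higher and 1 lower in Th1 than in Th17 cells (9.17% and 16% of all genes). Bcl2l1, Bcl2a1b, Bid and Pmaip1 were higher and Mcl1 lower in both Th1 and Th17 than in Th2 cells, comparisons that share the Th2 libraries. The split of all calls between higher and lower depends on scaling. Of the genes called, 61.8% were higher in Th1 than in Th2 cells, 50.9% with quantile normalization. For Th17 against Th2 cells the share was 72.6%, and 53.3% with equal medians or 50.7% with quantile normalization. For Th1 against Th17 cells it was 36.5%, and 48.1% or 49.7%. For Th17 against naive cells it was 55.7%, and 44.2% with quantile normalization. Of the calls of members named here, Bax in Th17 against Th2 cells was the one lost to such scaling.

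**Figure D3:**
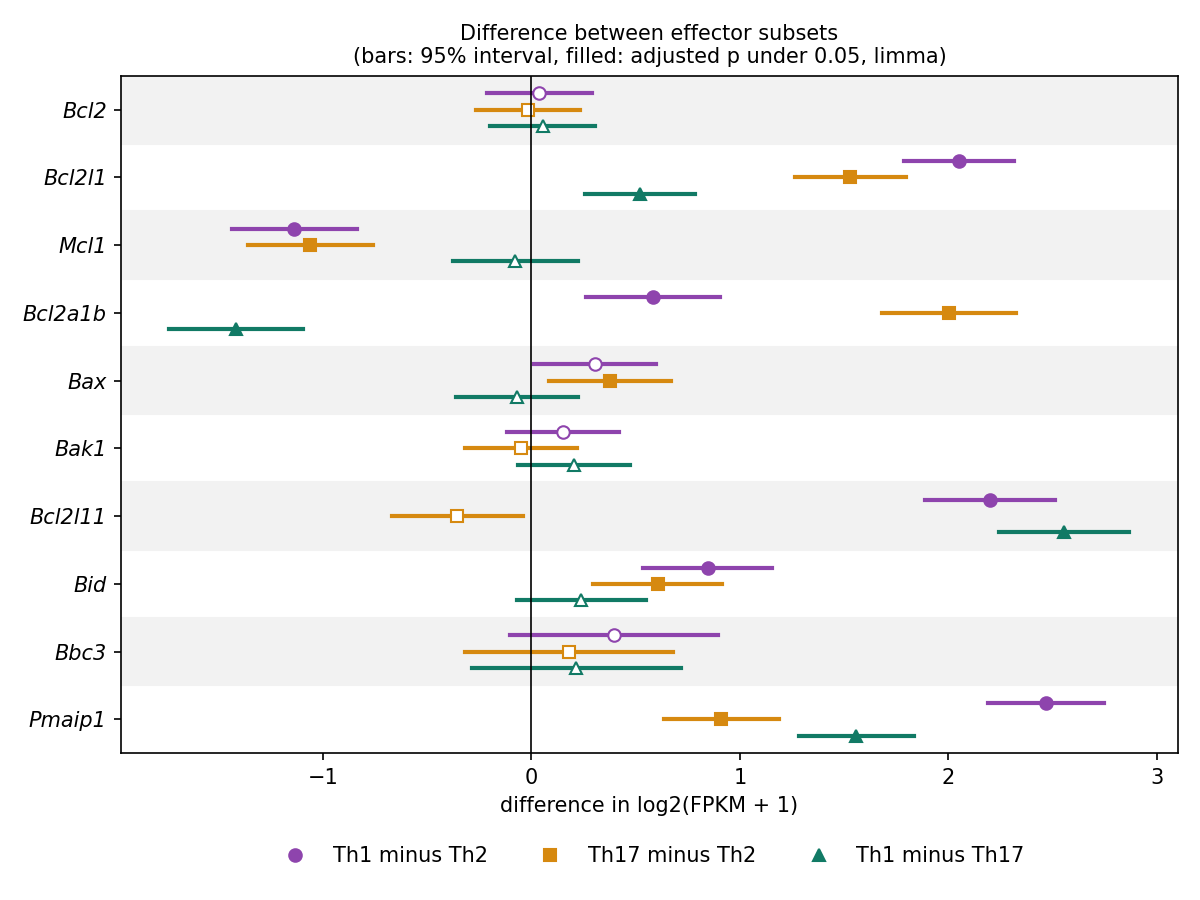
Difference between effector subsets in log2(FPKM + 1) for each of the 10 genes, with 95% intervals; filled symbols have an adjusted p under 0.05. All 3 Bcl2 and Bak1 intervals cover 0, the Mcl1 differences from Th2 cells are −1.14 and −1.06, and Bcl2l11 is 2.20 and 2.56 higher in Th1 than in Th2 and Th17 cells.

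The balance of the 2 sides was described by summed FPKM, a level per transcript length. The 4 pro-survival genes summed to 248 and 215 FPKM in naive cells, against 248 and 222 in Th1 cells, 312 and 307 in Th2 cells and 238 and 225 in Th17 cells. Naive, Th1 and Th17 libraries overlapped, and Th2 libraries stood above them. The 6 pro-death genes summed to 113 and 114 FPKM in naive cells, against 289 and 324 in Th1 cells, 200.2 and 194 in Th2 cells and 226 and 257 in Th17 cells, without overlap between groups. The pro-survival sum over the pro-death sum was 2.04 ± 0.22 (SD, n = 2) in naive cells, 0.771 ± 0.124 in Th1 cells, 1.57 ± 0.02 in Th2 cells and 0.965 ± 0.127 in Th17 cells.

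These sums are carried by a few genes. Mcl1 made up 85.3% of the pro-survival FPKM in naive cells, 69.4% in Th2, 44.3% in Th17 and 41.4% in Th1, and Bax was 50.9% to 67.9% of the pro-death FPKM by group. When each gene counted equally, by geometric means of FPKM + 1, the ratio was 1.88 in naive cells, 1.22 in Th1 cells, 1.94 in Th2 cells and 2.45 in Th17 cells. Th1 cells were lowest by either measure, whereas Th17 cells were next to lowest by sums and highest by geometric means. The order of the other 3 groups thus depends on how the genes are weighted.

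**Figure D4:**
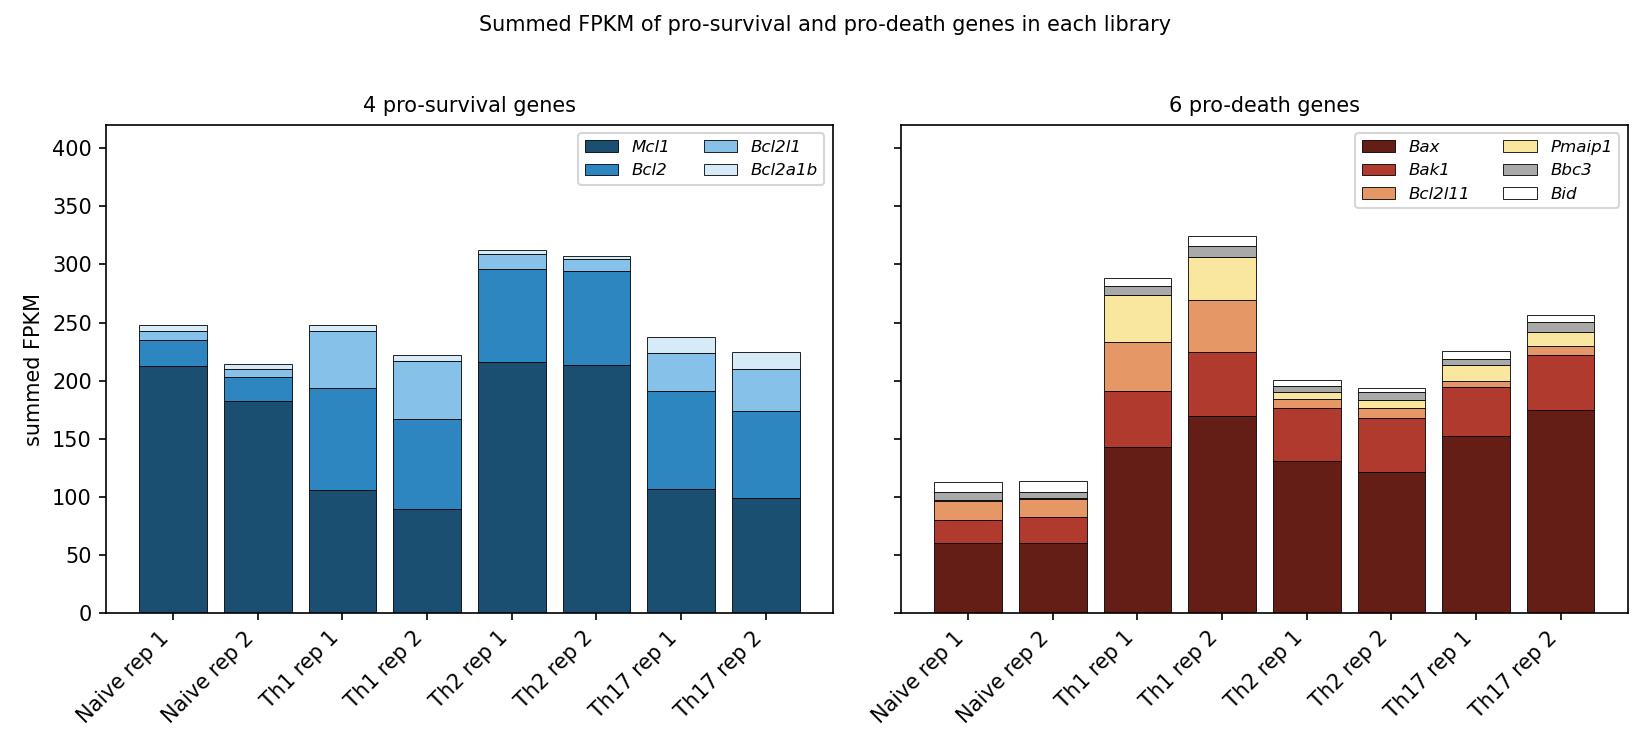
Summed FPKM of the 4 pro-survival genes (left) and the 6 pro-death genes (right) in each of the 8 libraries, stacked by gene from 0. Mcl1 fills 85.3% of the naive pro-survival sum and 41.4% of that of Th1 cells; the pro-death sum goes from 113 and 114 FPKM in naive cells to 289 and 324 FPKM in Th1 cells.

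Ratios within pairs whose proteins bind each other showed where the subsets parted. The FPKM of Bcl2 over that of Bcl2l11 was 1.31 and 1.33 in naive cells, against 2.10 and 1.74 in Th1 cells, 9.66 and 9.01 in Th2 cells and 15.0 and 9.96 in Th17 cells. Bcl2l1 over Bcl2l11 was 0.452 and 0.448 in naive cells, against 1.17 and 1.12 in Th1 cells, 1.49 and 1.13 in Th2 cells and 5.83 and 4.73 in Th17 cells. For both pairs the naive ratio was the lowest and the Th17 ratio the highest. Mcl1 over Bcl2l11 was lowest in Th1 cells (2.51 and 2.00) and highest in Th2 cells (26.0 and 23.7). Mcl1 over Pmaip1 was 398 and 485 in naive cells, 37.7 and 31.3 in Th2, 8.04 and 8.19 in Th17, and 2.56 and 2.40 in Th1. The summed FPKM of the 4 BH3-only genes was 97.7 and 100.0 in Th1 cells and between 23.9 and 34.4 in the other 6 libraries.

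Of 17 further BCL2 family genes, 12 passed the filter on low values. In Th1 cells 7 of these rose and 1 fell, in Th2 cells 6 rose and 4 fell, and in Th17 cells 9 rose and 1 fell, with medians of 0.74, 0.76 and 1.51. Of all tested genes 33.8%, 31.8% and 37.5% rose and 33.5%, 38.7% and 29.8% fell, with medians of −0.01, −0.11 and 0.08. Bnip3, a mitochondrial BH3-like protein known as a hypoxia-induced gene, was at 2.53 and 1.78 FPKM in naive cells and between 151 and 256 FPKM in the effector libraries, and rose by 5.78 in Th1 cells, 6.32 in Th2 cells and 5.70 in Th17 cells. Its relative Bnip3l, which acts in the removal of mitochondria, rose by 0.69, 2.15 and 1.08 (adjusted p at most 0.0359, limma) and was highest in Th2 cells (157 and 168 FPKM). Bcl2l2, which encodes the pro-survival protein BCL-W, was at 0.268 and 0.323 FPKM in naive cells and between 8.20 and 11.6 in effector cells. Between subsets no difference of Bcl2l2 passed the test, and Th1 minus Th17 was −0.34 (95% interval −0.59 to −0.09, adjusted p = 0.0592, limma).

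Bcl2l14 was at 0.0216 and 0.0435 FPKM in naive cells, against 2.58 and 2.29 in Th1 cells, 34.6 and 31.9 in Th2 cells and 15.8 and 13.2 in Th17 cells, and no 2 groups overlapped. Bcl2l15 rose by 2.11, 2.70 and 2.97. Among pro-death genes, Bik rose by 0.97, 1.32 and 1.45, and Bad rose by 0.79 in Th1 and 1.15 in Th17 cells and differed by 0.20 in Th2 cells (adjusted p = 0.169, limma). Bcl2l13 fell by 0.70, 0.57 and 0.38. Becn1, the autophagy protein that BCL2 binds, fell by 0.53 in Th2 cells and differed by −0.00 and −0.14 in Th1 and Th17 cells. Bcl2l12 fell by 0.36 in Th2 cells and differed by −0.15 in Th1 and 0.04 in Th17 cells. Bmf, Bok, Bcl2a1c and Bcl2l10 were under the filter, and Hrk was listed at 0 in every library.

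**Figure D5:**
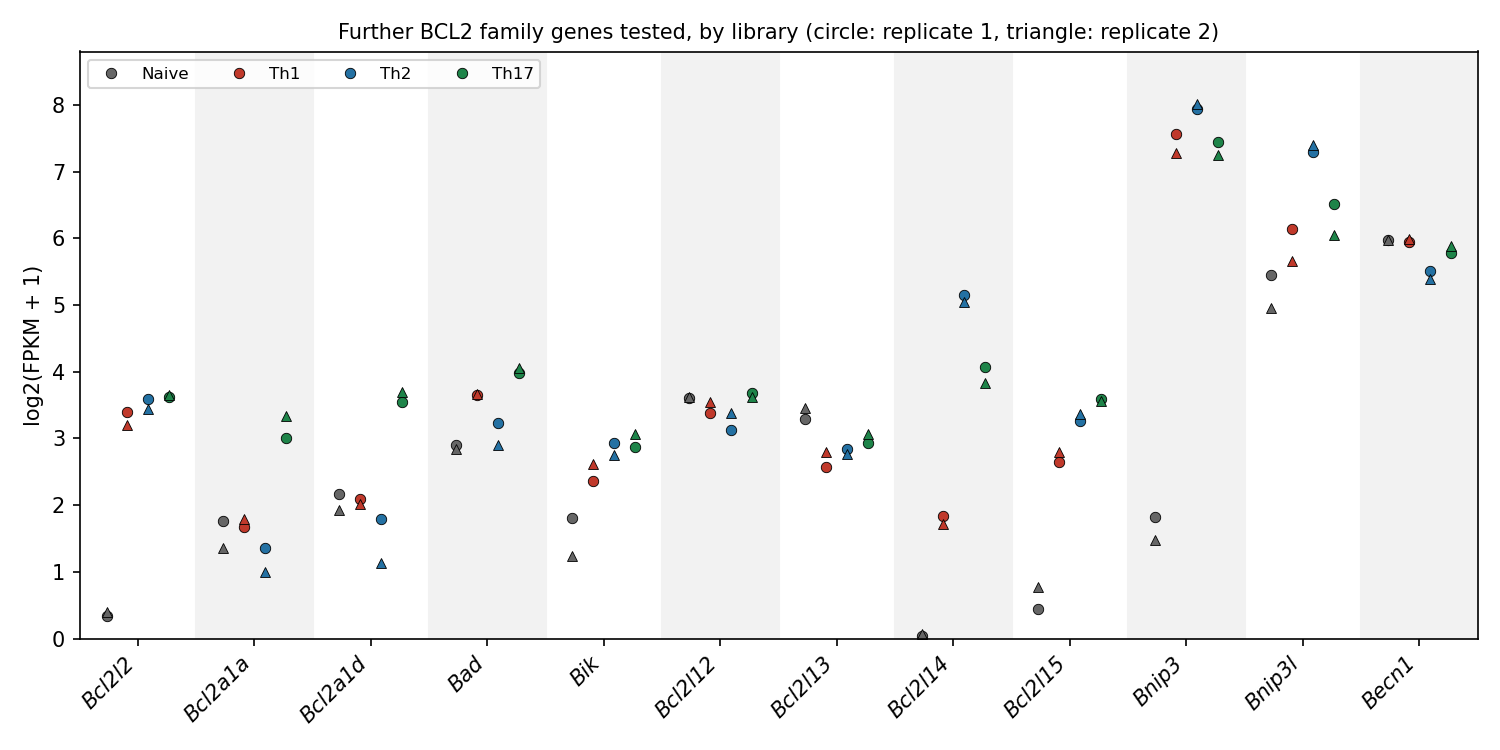
Level in log2(FPKM + 1) of the 12 further BCL2 family genes that passed the filter, in each library. Circles are replicate 1, triangles replicate 2, and colours are the 4 groups. Bnip3 stands lowest in naive cells (2.53 and 1.78 FPKM), Bcl2l14 and Bnip3l are highest in Th2 cells, and Bcl2a1a and Bcl2a1d are highest in Th17 cells.

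Downstream of mitochondria, 13 genes of the apoptosome and caspases were tested, of which 5 rose and 2 fell in Th1 cells, 4 rose and 3 fell in Th2 cells, and 7 rose and 2 fell in Th17 cells, with medians of 0.21, 0.23 and 0.53. Over all tested genes 33.8%, 31.8% and 37.5% rose and 33.5%, 38.7% and 29.8% fell, so that the shares in Th1 and Th2 cells that rose are near those of all genes. Casp6, an executioner caspase, rose by 3.04, 3.64 and 3.50 in Th1, Th2 and Th17 cells, and Apaf1, the scaffold of the apoptosome, by 1.53, 1.59 and 1.48. Dffb, the nuclease that cuts DNA in dying cells, fell by 1.11, 1.28 and 1.07.

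Of 7 inhibitor of apoptosis genes, 5 were tested, and 1 rose and 2 fell in Th1 cells, 2 rose and 1 fell in Th2 cells, and 2 rose in Th17 cells, with medians of −0.21, −0.03 and −0.03. Of all tested genes 33.8%, 31.8% and 37.5% rose and 33.5%, 38.7% and 29.8% fell, and 1 or 2 of 5 genes is near such shares. Birc5, which encodes survivin and also acts in cell division, went from 1.02 and 1.76 FPKM in naive cells to between 67.4 and 136 FPKM in effector cells. Birc3 fell by 0.63 in Th1 cells and rose by 0.51 in Th2 and 0.30 in Th17 cells, and Birc2 fell by 0.60 in Th1 cells. Birc6 fell by 0.79 in Th2 cells.

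The death receptor pathway was tested with 12 genes, of which 5 rose and 4 fell in Th1 cells, 3 rose and 7 fell in Th2 cells, and 3 rose and 5 fell in Th17 cells, with medians of 0.14, −0.49 and 0.00. Of all tested genes 33.8%, 31.8% and 37.5% rose and 33.5%, 38.7% and 29.8% fell, close to the shares of this list in Th1 cells. Fas, the receptor for Fas ligand, was at 41.7 and 29.1 FPKM in naive cells, against 24.6 and 22.8 in Th1 cells, 3.91 and 4.67 in Th2 cells and 17.3 and 18.4 in Th17 cells. It was thus 2.23 higher in Th1 than in Th2 cells on the log2 scale (adjusted p = 9.8e-05, limma). Tnfsf10, which encodes TRAIL, fell by 0.55, 1.54 and 1.78 in Th1, Th2 and Th17 cells. Ripk3, a kinase of necroptosis, rose by 1.43, 1.63 and 1.18, and Tnfrsf1b, a TNF receptor, by 1.57, 0.59 and 1.13.

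Of 12 tested genes of p53 and its targets, 10 rose and 1 fell in Th1 cells, 8 rose and 2 fell in Th2 cells, and 10 rose and 1 fell in Th17 cells, with medians of 1.498, 1.38 and 1.63, where 33.8%, 31.8% and 37.5% of all tested genes rose and 33.5%, 38.7% and 29.8% fell. Cdkn1a, the p21 inhibitor of the cell cycle, was at 0.102 and 0.360 FPKM in naive cells and between 133 and 225 FPKM in effector cells. Phlda3 was at 0.0691 and 0.104 FPKM in naive cells and between 15.1 and 28.2 in effector cells, and Gtse1, a cell cycle gene, rose by 4.09, 3.72 and 3.92. Perp was listed at 0 in both naive libraries and was at 8.10 and 6.42 FPKM in Th17 cells. Of the members known as p53 targets, Bbc3 did not pass the test in any comparison, while Bax and Pmaip1 rose in each subset. Trp53, also named here after its values were seen, was at 71.1 and 76.4 FPKM in naive cells. It fell by 1.01 in Th2 cells and differed by −0.29 in Th1 and −0.25 in Th17 cells (adjusted p = 0.000863, 0.129 and 0.187, limma). The part of p53 in the values of Bax and Pmaip1 was not tested.

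Of 18 genes that act on the transcription or turnover of the family, 7 rose and 4 fell in Th1 cells, 9 rose and 6 fell in Th2 cells, and 7 rose and 1 fell in Th17 cells, with medians of 0.02, 0.42 and −0.06, where 33.8%, 31.8% and 37.5% of all tested genes rose and 33.5%, 38.7% and 29.8% fell. The IL-2 receptor chains Il2ra and Il2rb rose by 6.64 and 4.93 in Th1 cells, 6.87 and 4.95 in Th2 cells, and 7.12 and 4.82 in Th17 cells. Pim1 and Pim2 encode survival kinases downstream of cytokine receptors. Pim1 rose by 2.55, 2.09 and 2.17. Pim2 rose by 2.59, 1.68 and 1.11, and was at 227 and 256 FPKM in Th1 cells, 128 and 127 in Th2 cells and 81.3 and 89.9 in Th17 cells.

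For 3 members the genes with the most similar profile were sought among all tested genes, by the root mean square difference of centred log2(FPKM + 1) over the 8 libraries. For Bcl2 these were 4632434I11Rik (0.0795), Tcp1 (0.118) and Clec2l (0.118). Tcp1, a subunit of the chaperonin that folds actin and tubulin, averaged 67.2 FPKM in naive cells, 214 in Th1 cells, 245 in Th2 cells and 229 in Th17 cells. For Bcl2l1 they were B3galt2 (0.0892), Tnfsf4 (0.125) and Acsl6 (0.135). Tnfsf4, which encodes OX40 ligand, averaged 0.187 FPKM in naive cells, 5.33 in Th1 cells, 0.949 in Th2 cells and 4.14 in Th17 cells. For Bcl2l11 they were Fasl (0.265), Osbpl8 (0.324) and Trf (0.375). Fasl, the ligand of Fas, averaged 2.09 FPKM in naive cells, 7.25 in Th1 cells, 0.157 in Th2 cells and 0.270 in Th17 cells. The nearest of the other members was farther in each case, Bax for Bcl2 (0.328) and for Bcl2l1 (0.664) and Bid for Bcl2l11 (0.846). Because 1 is added before the logarithm, a like profile on this scale need not mean a like ratio of FPKM. 4632434I11Rik, Clec2l, B3galt2, Tnfsf4 and Acsl6 averaged under 1 FPKM in naive cells. Mean FPKM of Fasl was 46.1-fold higher in Th1 than in Th2 cells, against 5.01-fold for Bcl2l11.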

How the data were processed

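The authors aligned 50-base reads to the mouse genome mm10 with Bowtie 0.12.8 and TopHat 1.3.2 and deposited one table of gene FPKM per library from Cufflinks 2.0.2, with confidence intervals. FPKM (fragments per kilobase of exon and per mapped read total) are relative to transcript length and library size, at gene level. The gene annotation is not given in the sources used here. The labels name a stranded library kit and the study's methods one that keeps no strand, so reads of genes overlapping on opposite strands may be shared.

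Values were summed per symbol, and log2(FPKM + 1) of the 11198 genes with a mean of at least 1 FPKM was fitted with limma 3.58.1 (R 4.3.3, moderated with a trend; 4 group means, 8 libraries). All 6 pairs of groups were compared with Benjamini-Hochberg adjustment over all genes at 0.05. The fit was tested on simulated data with independent libraries and large shifts in Th1 cells. That simulation does not cover effects shared by replicates or small differences. Implied fragments were (FPKM/SD) squared, with the distance from the FPKM to the upper confidence bound taken as 2 SD. This covers counting error and isoform assignment. Promoter copies were aligned with MAFFT 7.526.

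The members and gene lists were chosen with earlier results of these data known. Named were all members, the further family genes over the filter, from each other list the 4 genes farthest from naive cells among those past the threshold, defining markers, and the 3 most similar genes of Bcl2, Bcl2l1 and Bcl2l11. A gene that this rule names is not reported here. Alternatives were a pseudocount of 0.1, no filter, median or quantile scaling, 2 groups only, no trend, a replicate block, voom on implied fragments, the largest row per symbol, and each library left out; status OK in every library was added after the data were seen.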

Additional observations from a re-analysis of the deposited data

Results flagged for a closer look

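In 7 of the 10 genes the change from naive cells differed between 2 effector subsets by a direct test of that difference (limma on log2(FPKM + 1), adjusted over all tested genes), and in the other 3 genes, Bcl2, Bak1 and Bbc3, no such difference passed. A member was counted when it passed in any comparison of subsets. Such calls were common at large. Out of 11198 genes, 4961 were called for Th1 against Th2, 4885 for Th17 against Th2 and 2815 for Th1 against Th17. How many genes were called in any of these comparisons was not counted. The 7 of 10 is therefore not shown to be more than among all genes. For each of the 7 members the pair of subsets farthest apart is given. Bcl2l1 differed by 2.05 between Th1 and Th2 cells, Mcl1 by −1.14, Bid by 0.845 and Pmaip1 by 2.47, all as Th1 minus Th2. Bcl2a1b differed by 2.00 and Bax by 0.375 as Th17 minus Th2. Bcl2l11 differed by 2.56 as Th1 minus Th17, having risen in Th1 and fallen in Th17 cells. Of these 7, Bax is the one whose difference did not pass with scaled libraries, and it also did not pass when any one Th2 or Th17 library was left out. Nor did Bax pass without the filter on low values or in a fit of only the 2 groups compared.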

How the results depend on the processing

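Of 840 values of single members under alternatives, 787 kept direction and side of the threshold, 23 lost the threshold, 5 gained it and 25 changed sign. None of the 25 was past the threshold. The cause was not tested. In Th17 against Th2 cells, 2 members rather than 1 were lower with median scaling, quantile normalization, voom or the replicate block, which added Bcl2l11. Leaving out 1 library moved these counts to 3 to 4 higher and 1 to 2 lower. It moved the genes called from 4961 to between 3106 and 4287 (Th1 against Th2, fewest without Th1 replicate 2), from 4885 to between 2738 and 4072 (Th17 against Th2, fewest without Th17 replicate 2) and from 2815 to between 1558 and 1734 (Th1 against Th17). With geometric means the ratio of pro-survival to pro-death rose to 1.22 (Th1), 1.94 (Th2) and 2.45 (Th17), and with the further family added it was 1.52 in Th2.

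Sign changes, each in differences near 0, were as follows. With median scaling Bbc3 was 0.0079 (Th2 minus naive), Bcl2 −0.058 (Th1 minus Th2), and Mcl1 0.011 and Bax 0.019 (Th1 minus Th17). With quantile normalization Mcl1 was −0.091 (Th2 minus naive), Bbc3 −0.091 (Th17 minus naive), Bcl2 −0.12 (Th1 minus Th2) and Bbc3 −0.032 (Th17 minus Th2). With voom Bbc3 was −0.024 (Th17 minus naive) and Bcl2 −0.058 (Th1 minus Th2). With 1 library left out the ranges were −0.20 to 0.061 for Bcl2a1b (Th1 minus naive), −0.28 to 0.055 and −0.16 to 0.30 for Bbc3 (Th2 and Th17 minus naive), −0.054 to 0.13 for Bcl2 (Th1 minus Th2), −0.14 to 0.035 for Bak1, −0.099 to 0.066 for Bcl2 and −0.050 to 0.41 for Bbc3 (Th17 minus Th2), and −0.037 to 0.14 for Bcl2, −0.19 to 0.051 for Bax, −0.20 to 0.041 for Mcl1 and −0.014 to 0.45 for Bbc3 (Th1 minus Th17).

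Replicates 1 and 2 are numbered alike in all groups, and the labels name nothing that the numbers share. Over 11198 genes the difference of replicate 1 from 2 correlated between groups at 0.138 to 0.294. When that number was entered as a block, 1 of 60 calls of members changed, Bcl2l11 in Th17 against Th2 cells (−0.36, adjusted p = 0.0417, limma), and 5969 rather than 4885 genes were called there. Among the lists compared with naive cells, the genes that fell went from 2 to 4 (apoptosome and caspases, Th1), from 0 to 1 (inhibitors of apoptosis, Th17), from 1 to 2 (p53 and targets, Th1) and from 1 to 4 (regulators, Th17), and the other counts moved by at most 1.5 times. Depth limits Pmaip1 in naive cells (30 and 21 implied fragments) and Bcl2a1b (43 to 255).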

Other observations

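Effector libraries numbered 1 held more transcripts of the neutrophil granule genes Mpo and Elane than those numbered 2. The summed FPKM of 4 neutrophil markers was 7.65, 6.52 and 7.28 in Th1, Th2 and Th17 replicate 1, and 0.181, 0.0425 and 0.545 in replicate 2. Naive cells were at 1.21 and 0.173. The difference between replicates lay in Mpo and Elane. The other neutrophil markers did not share it: S100a8 was at most 0.663 FPKM in any library, with 0.174 and 0.181 in Th1 cells. S100a9 was at 0 in every effector library. Bcl2a1b, which neutrophils also express, was at 5.12 and 4.63 FPKM in replicates 1 and 2 of Th1 cells, at 3.31 and 2.56 in those of Th2 cells and at 14.2 and 15.2 in those of Th17 cells. The part of neutrophil RNA in these values was not tested. The summed FPKM of red cell genes was 6.19 and 7.65 in naive cells and at most 0.916 in effector cells. Most of the naive sum was the globin gene Hba-a1 (6.04 and 5.68 FPKM). Hbb-b1 was at 0.000256 and 1.72 FPKM in naive cells. Alas2 was at 0.151 and 0.254 FPKM in naive cells and overlapped with Th17 cells (0.215 and 0.192).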
